A study of Mus musculus with 8 samples.

Results

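The Cyp4a genes encode the omega-hydroxylases of the fatty acid omega-oxidation pathway, and 5 of them were followed here in mouse liver: Cyp4a12a, Cyp4a12b, Cyp4a10, Cyp4a14 and Cyp4a31. They were chosen by symbol, with earlier results of these data known, and all 5 were found among the 11784 genes of the table. Expression of the family moved in opposite directions on the Low AA diet. Cyp4a12a and Cyp4a12b fell 4.06-fold and 3.48-fold, Cyp4a31 rose 2.40-fold, and Cyp4a14 and Cyp4a10, which together make up most of the Cyp4a signal, did not pass the test, at 1.32-fold and 1.09-fold of the Control level.

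Livers came from 8 male C57BL/6J mice. From 9 weeks of age, 4 were fed the Control diet (TD.140711) and 4 the Low AA diet (TD.140712), both made from defined amino acids, and the Low AA diet had less of its calories from amino acids and more from carbohydrate. All 8 mice ate their diet for about 4 months and were fasted overnight for about 16 hours before the liver was taken, so no fed liver was measured. They carried no engineered allele, and the mice had been housed in groups, with the cage of each mouse not given in the sources used here. Mice are numbered 1 to 4 within a diet in the order of their records, and that number carries no other information.

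Omega-oxidation starts at the far end of a fatty acid chain. A Cyp4a enzyme in the endoplasmic reticulum hydroxylates the terminal carbon, alcohol and aldehyde dehydrogenases then turn the product into a dicarboxylic acid, and peroxisomes shorten it. Cyp4a10 and Cyp4a14 are textbook targets of PPARA, the nuclear receptor that drives hepatic fatty acid use in fasting. Cyp4a12a and Cyp4a12b are male-predominant, and Cyp4a12a also makes 20-HETE, a vasoactive lipid, from arachidonic acid.

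The genes lie on chromosome 4 in 1 cluster that holds 11 annotated Cyp4a genes and pseudogenes within 483 kb (GRCm38, GENCODE annotation). From the lower to the higher coordinate these are Cyp4a12a at chr4:115299046-115332815, Cyp4a12b at chr4:115411624-115439034, Cyp4a14 at chr4:115486200-115496142, Cyp4a10 at chr4:115518264-115533649 and Cyp4a31 at chr4:115563649-115579015. Cyp4a14 is on the minus strand and the other members are on the plus strand. Cyp4a32, a close relative that is no member but is in the table, follows at chr4:115600969-115621602. Gene boundaries include exons, introns and UTRs.

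Because these genes arose as copies of each other, how well 1 read can tell them apart was measured first. The coding sequences of Cyp4a12a and Cyp4a12b differ at 23 of 1524 bases, an identity of 98.5%, and the longest run without a difference is 342 bases. Reads were 100 bases long, and 35.8% of the 100-base windows of the Cyp4a12a transcript and 36.2% of those of Cyp4a12b occur in the other gene as well. Both are shown here over the first 60-base stretch of the coding sequence with the most differing bases, positions 624 to 683 from the start codon, since a read must cover such letters to be assigned to 1 gene. Capitals mark the 4 bases at which they differ.
Cyp4a12a: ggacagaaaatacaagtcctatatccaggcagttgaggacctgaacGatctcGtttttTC
Cyp4a12b: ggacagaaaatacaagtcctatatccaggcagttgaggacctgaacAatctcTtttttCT

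Cyp4a10 and Cyp4a31 differ at 52 of 1527 coding bases, an identity of 96.6%. Their stretch with the most differing bases, positions 106 to 165, holds 6 differences, again in capitals, and is printed because the levels of these genes differ widely in the same liver.
Cyp4a10: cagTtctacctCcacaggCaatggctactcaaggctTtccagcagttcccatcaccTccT
Cyp4a31: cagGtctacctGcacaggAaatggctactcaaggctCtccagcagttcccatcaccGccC

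Among 100-base windows, 8.22% of those of Cyp4a31 and 12.7% of those of Cyp4a10 were also found in another gene. In both cases this was in each other or in Cyp4a32. Of the Cyp4a10 windows, 5.37% occur in Cyp4a31. The Control means were 206334 scaled reads for Cyp4a10 and 4666 for Cyp4a31. A small misplaced share of Cyp4a10 reads could therefore weigh on Cyp4a31, which was not tested. The Cyp4a32 transcript used has 1530 bases, of which 1527 are coding, so windows shared with its UTRs could not be counted. Cyp4a14 stood alone, with 0 of its 2397 windows in any other annotated transcript, and its coding sequence was at most 76.4% identical to that of any of the other 5 genes. A window that occurs in only 1 gene can still be misplaced if it carries sequencing errors, and how the authors assigned shared reads is not given in the sources used here beyond the name of the program RSEM, which in general divides such reads by estimation. The plot of read-length windows shows these shares.

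**Figure D1:**
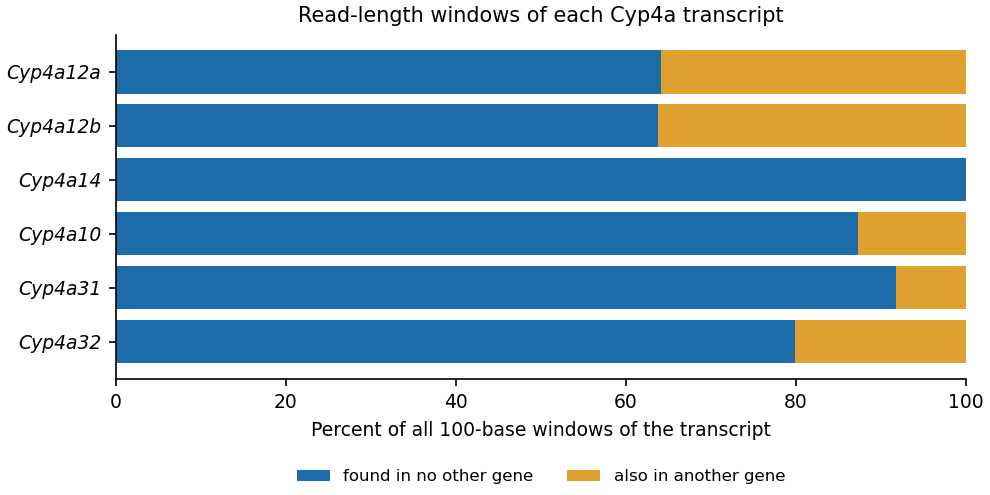
Share of all 100-base windows of the longest protein-coding transcript of each Cyp4a gene (horizontal axis, percent) that occurs in no other gene (blue) or also in another annotated gene (orange). The orange part is 35.8% for Cyp4a12a and 36.2% for Cyp4a12b, and it is absent for Cyp4a14.

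The values are scaled read counts, that is, reads per gene that the authors scaled between libraries and rounded. They summed to between 27876664 and 30799385 per mouse. The diets were compared by limma after each value was transformed to log2(value + 1), and p-values were adjusted over all 11784 genes. At an adjusted p under 0.05, 3 of the 5 Cyp4a members passed, of which 1 was higher and 2 were lower. Of all genes 0.399% passed, with 0.102% being higher and 0.297% being lower. Because the members were chosen with earlier results known, shares of all genes are set beside them as a description only. The values of the 2 diets did not overlap in 4 of the 5 members, Cyp4a14 and Cyp4a31 being higher and both Cyp4a12 genes lower, against 6.81% of all genes, 3.26% higher and 3.55% lower. In bulk tissue, fewer cells that express a gene and less RNA per cell cannot be told apart.

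Control mouse 2 stood apart from the other mice. Cela1, a pancreatic elastase, had a scaled read count of 36587 in its library and of 130 to 288 in the other 7, and the summed acute-phase genes were highest there, so the values without this mouse are given with each member. Among markers of other cell types, 7 of 8 kidney tubule markers, kidney being another site of Cyp4a expression, were not in the table, and the last, Lrp2, had 20 to 43 on the Low AA diet and 21 to 86 on the Control diet. Only 1 of 10 pancreas markers and 1 of 6 adipocyte markers were in the table. No listed marker of hepatocytes, pancreas, adipocytes, blood, macrophages, stellate and endothelial cells or bile ducts passed the test. Several of these lists nevertheless lay to 1 side of 0, as log2 fold changes were below 0 in 4 of 4 listed bile duct markers (median -0.62, summed level 1124 to 2265 on the Control and 826 to 1316 on the Low AA diet) and in 3 of 3 listed blood markers (median -0.49, 6414 to 22257 and 7713 to 12216), and above 0 in 6 of 6 macrophage markers (median 0.23, 4998 to 7242 and 5417 to 7376). At an unadjusted p under 0.05 were 2, 2 and 1 of them, against 11.8% of all genes. Acute-phase genes were below 0 in 9 of 10 (median -0.92), 0 passed the limma test with 2 at an unadjusted p under 0.05, and their summed level was 176108 to 372434 on the Control and 151906 to 189882 on the Low AA diet. Saa1 and Orm1, 2 of the 10, were lower without overlap between the diets, against 3.55% of all genes. The part of these genes in the Cyp4a changes was not tested. The hepatocyte markers Alb, Apoa1 and Ttr were abundant in all 8 livers. Sex was checked on Y-linked genes, since Cyp4a12a is male-predominant. Of these, 4 were listed, with summed values of 2736 to 4796 on the Control and 3360 to 4478 on the Low AA diet, and Xist was not listed.

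Cyp4a12a, the arachidonate and fatty acid omega-hydroxylase of males, had scaled read counts of 16692, 13307, 10719 and 10500 in the Control mice and of 2289, 3263, 3232 and 3813 in the Low AA mice. Every Low AA mouse was far below every Control mouse. The means were 12805 ± 2888 and 3149 ± 633 (SD, n = 4 each). The fall on the log2 scale was -2.02 ± 0.19 (SE), with an adjusted p of 0.00198 in limma. This was the 3rd smallest p-value of all genes. Without Control mouse 2 this value was -1.99, with an adjusted p of 0.00381.

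Cyp4a12b, its near-identical neighbour, had 9532, 5921, 8852 and 6511 in the Control mice and 1788, 2582, 1909 and 2522 in the Low AA mice. Again the diets did not overlap. The means were 7704 ± 1757 and 2200 ± 410 (SD, n = 4 each). On the log2 scale the fall was -1.80 ± 0.18 (SE), with an adjusted p of 0.00201 in limma. Without Control mouse 2 it was -1.91, with an adjusted p of 0.0018.

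Since many of the possible reads cannot distinguish these genes, their sum was also fitted as 1 gene. The sum lay between 17011 and 26224 in the Control mice and between 4077 and 6335 in the Low AA mice, a 3.83-fold fall (-1.94 ± 0.17 on the log2 scale, SE, adjusted p of 0.00115 in limma). This value does not depend on how reads were divided between the pair. The ratio of Cyp4a12a to Cyp4a12b was above 1 in all 8 mice, at 1.21 to 2.25 in the Control and 1.26 to 1.69 in the Low AA mice, and these ranges overlapped.

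Cyp4a31, which has the PPARA target Cyp4a10 as its closest member in sequence, moved the other way. It had 4997, 3460, 5522 and 4683 in the Control mice and 9199, 12867, 13610 and 9181 in the Low AA mice. The lowest Low AA mouse was well above the highest Control mouse. The means were 4666 ± 875 and 11214 ± 2357 (SD, n = 4 each). The rise on the log2 scale was 1.26 ± 0.18 (SE), with an adjusted p of 0.0183 in limma. The Low AA mice fell into a higher pair, mice 2 and 3, and a lower pair, mice 1 and 4. Without Low AA mouse 2 the adjusted p was 0.065 and without Low AA mouse 3 it was 0.0672, with log2 fold changes of 1.19 and 1.16. Without Control mouse 2, the lowest of all mice for this gene, it was 1.13, with an adjusted p of 0.0215.

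**Figure D2:**
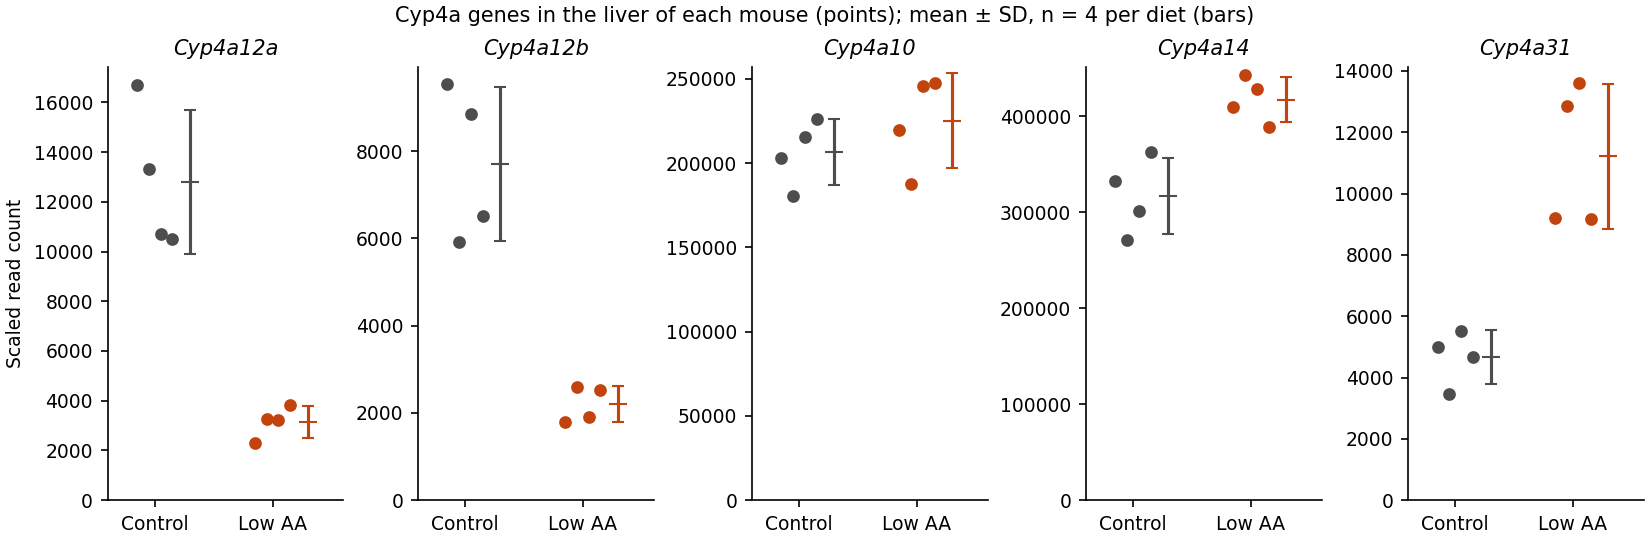
Scaled read count (vertical axis, from 0, with its own scale for each gene) of the 5 Cyp4a genes in each Control (grey) and Low AA (orange) mouse, with the mean ± SD of the 4 mice beside the points. The diets are fully separated for Cyp4a12a, Cyp4a12b, Cyp4a14 and Cyp4a31 and overlap for Cyp4a10.

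Cyp4a14, one of the most strongly PPARA-inducible genes of the liver, was the most abundant member. Its scaled read counts were 332879, 271041, 301147 and 362824 in the Control mice and 410077, 442683, 428275 and 388651 in the Low AA mice. The diets did not overlap, but the difference of 0.40 on the log2 scale (95% interval 0.09 to 0.72) did not pass across all genes, with an adjusted p of 0.279 in limma. Its spread was narrower on the Low AA diet, with a coefficient of variation of 5.60% against 12.5% on the Control diet, a difference that was not tested. Without Control mouse 2 the difference in level was 0.33 on the log2 scale, with an adjusted p of 0.416.

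Cyp4a10, the other classical PPARA target, had 202823, 180646, 215559 and 226310 in the Control mice and 219769, 187410, 245644 and 247485 in the Low AA mice. The diets overlapped. The log2 fold change was 0.12 with a 95% interval from -0.19 to 0.43 (limma adjusted p = 0.807), and without Control mouse 2 it was 0.06. Cyp4a32, outside the 5 members but close to Cyp4a10 and Cyp4a31 in sequence, had 3821 to 6552 in the Control and 6290 to 8726 in the Low AA mice, with a log2 fold change of 0.60 that did not pass (limma adjusted p = 0.176).

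Outside the Cyp4a12 pair the fold was thus 1.09 for Cyp4a10, 1.32 for Cyp4a14, 1.52 for Cyp4a32 and 2.40 for Cyp4a31. Within a mouse, the count of Cyp4a31 was 1.92% to 2.56% of that of Cyp4a10 on the Control and 3.71% to 6.87% on the Low AA diet, with no overlap. This ratio restates the change of Cyp4a31 beside that of Cyp4a10, and the part of reads shared between them was not tested. Summed into 1 gene, Cyp4a10, Cyp4a31 and Cyp4a32 changed by 0.17 on the log2 scale (limma adjusted p = 0.709), a value that follows Cyp4a10, the source of most of those reads.

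Levels of different genes were compared per kilobase of transcript. In the Control mice the order was Cyp4a14 with 126992 ± 15884 scaled reads per kilobase, Cyp4a10 with 97835 ± 9309, Cyp4a12a with 5287 ± 1192, Cyp4a12b with 3217 ± 734 and Cyp4a31 with 1860 ± 349 (SD, n = 4 each). No neighbours in this order overlapped in their ranges over mice. On the Low AA diet Cyp4a14 at 167236 ± 9361 and Cyp4a10 at 106722 ± 13333 stayed in front, and Cyp4a31 at 4470 ± 939 stood next, above Cyp4a12a at 1300 ± 261 and Cyp4a12b at 919 ± 171 (SD, n = 4 each). The least abundant of the 5 genes on the Control diet was thus above both Cyp4a12 genes on the Low AA diet, where the ranges of Cyp4a12a and Cyp4a12b overlapped.

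Together the 5 genes took 1.63% to 2.15% of all listed reads on the Control and 2.12% to 2.39% on the Low AA diet, and the ranges overlapped slightly. Cyp4a12a and Cyp4a12b made up 2.78% to 4.63% of these Cyp4a reads on the Control diet and 0.634% to 0.972% on the Low AA diet. The fall of the pair was therefore small beside the whole Cyp4a signal, which Cyp4a14 and Cyp4a10 set. On the log2 scale, with each gene centred on its mean over the 8 mice, the average of Cyp4a12a and Cyp4a12b minus that of Cyp4a10, Cyp4a14 and Cyp4a31 ran from 0.89 to 1.57 in the Control mice and from -1.51 to -0.92 in the Low AA mice. This contrast was defined with earlier results known and was not tested.

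**Figure D3:**
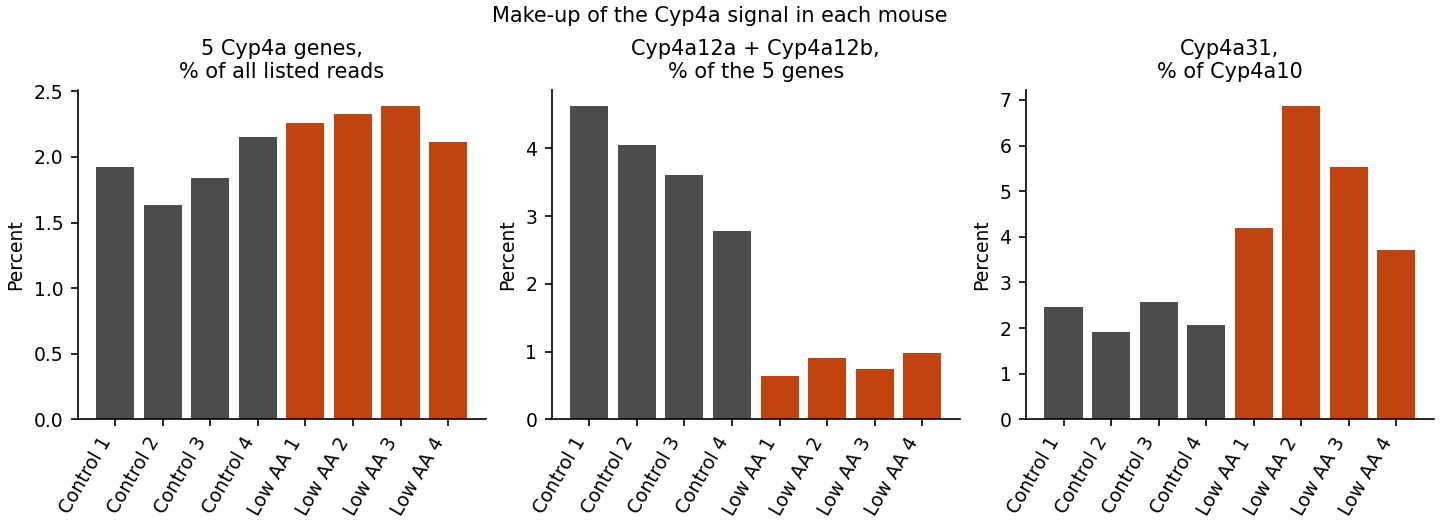
Percent (vertical axes, from 0) in each Control (grey) and Low AA (orange) mouse of all listed reads that fell in the 5 Cyp4a genes, of those Cyp4a reads that fell in Cyp4a12a and Cyp4a12b, and of Cyp4a31 relative to Cyp4a10. The share of the Cyp4a12 pair is 2.78% or more in each Control mouse and at most 0.972% in each Low AA mouse.

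Mice of 1 diet differed from each other in ways that were not shared by all members. Low AA mouse 1 had the lowest Cyp4a12a and Cyp4a12b of all 8 mice, whereas its Cyp4a10 and Cyp4a14 lay within the range of the other Low AA mice. Low AA mouse 2 had the lowest Cyp4a10 of its diet and the highest Cyp4a14. Control mouse 2 had the lowest Cyp4a10, Cyp4a14, Cyp4a31 and Cyp4a12b of the Control mice but the second highest Cyp4a12a.

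Among the other Cyp4 genes no fall as large as that of Cyp4a12a and Cyp4a12b was measured. Of 17 such genes 8 were listed and 0 passed the test (limma, with 4 at an unadjusted p under 0.05, against 11.8% of all genes), with a median log2 fold change of -0.14 against 0.00 over all genes. Cyp4f15 and Cyp4f13, of the Cyp4f group that hydroxylates leukotrienes and long-chain fatty acids, had log2 fold changes of -0.42 and -0.41 (limma adjusted p = 0.158 and 0.118). These 2 of the 8 were lower without overlap between diets, against 3.55% of all genes. Cyp4v3 had -0.31, Cyp4f14 -0.18, Cyp4b1 -0.11, Cyp4f17 0.05 and Cyp4f16 0.21 on the log2 scale. Cyp4a29 and Cyp4a30b, which lie in the cluster, were not in the table.

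**Figure D4:**
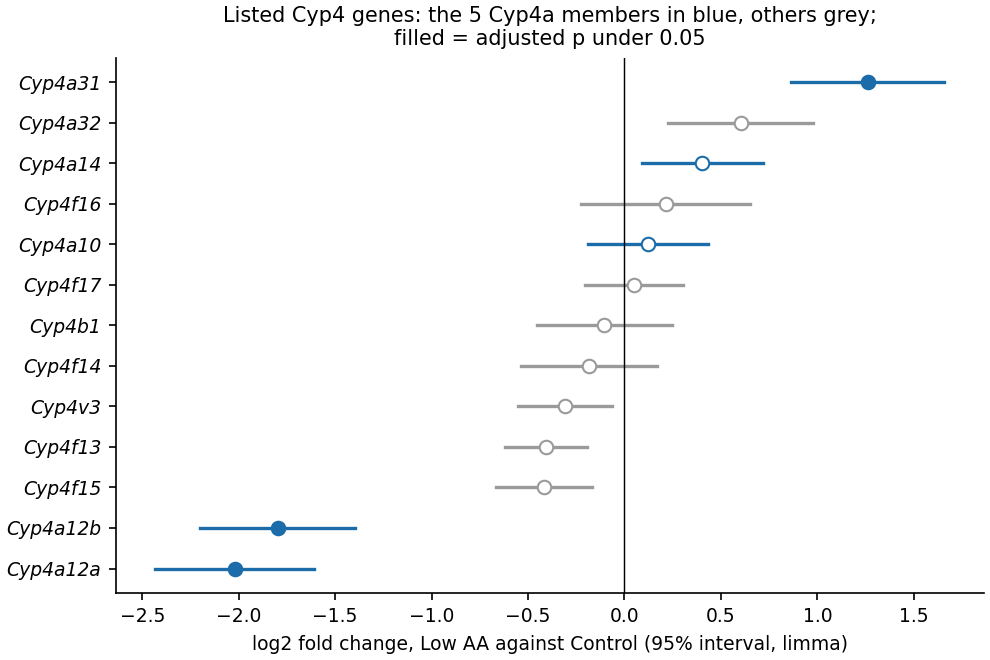
Log2 fold change on the Low AA against the Control diet (horizontal axis) with its 95% interval from limma for the 13 listed Cyp4 genes, members in blue and others in grey, filled where the adjusted p was under 0.05. Cyp4a12a and Cyp4a12b lie at -2.02 and -1.80, Cyp4a31 at 1.26, and the other genes between -0.42 and 0.60.

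Genes around the cluster were examined in the same way. Of 10 listed genes outside the Cyp4a family within 500 kb, 0 passed the test (limma, with 0 at an unadjusted p under 0.05), and their log2 fold changes ran from -0.26 to 0.15. The first listed genes on either side were Tal1, at -0.03 (limma adjusted p = 0.983), and Cyp4b1, 3.1 kb beyond Cyp4a32, with -0.11 (limma adjusted p = 0.855).

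The wider PPARA program was examined on 31 targets outside the Cyp4a family, all of them listed. None passed the test (limma, 0 of 31, with 12 at an unadjusted p under 0.05, against 11.8% of all genes), and 29 of 31 had a log2 fold change above 0, against 50.5% of all genes. The median log2 fold change was 0.25. Among the abundant ones, Fabp1, the fatty acid carrier, had 0.27 (limma adjusted p = 0.696) and Ehhadh, the peroxisomal bifunctional enzyme, had 0.07 (limma adjusted p = 0.945). The targets share mice and libraries and are not independent of each other. Without Control mouse 2, 2 of the 31 passed, and without Low AA mouse 4, 1 did. Of all genes, 77 passed without Control mouse 2 and 39 without Low AA mouse 4, against 47 with all mice. Cyp4a31, at 1.26, thus had a larger change than all but 2 of these targets, Acot3 at 1.97 and Pdk4 at 1.40. Cyp4a14, at 0.40, was above their median and Cyp4a10, at 0.12, below it, and neither passed the test.

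Genes of the electron donors to the Cyp4a step and of the later steps did not pass. The electron donors Por, Cyb5a, Cyb5b and Cyb5r3 had log2 fold changes of 0.10, 0.03, -0.01 and -0.05. Of 14 genes of the later steps 0 passed (limma, with 2 at an unadjusted p under 0.05, a share near the 11.8% of all genes), with a median of 0.17. Aldh3a2, the fatty aldehyde dehydrogenase, had 0.13, and the alcohol dehydrogenases Adh1, Adh4, Adh5 and Adh7 had 0.20, -0.39, 0.13 and 0.37. Abcd3, which carries long-chain and dicarboxylic acids into peroxisomes, had 0.35 (limma adjusted p = 0.197). It was higher without overlap between the diets, as 1 of the 14 genes, against 3.26% of all genes. Crot, Scp2 and Acot8, which act on peroxisomal acyl groups, had 0.30, 0.01 and 0.04. The peroxisomal oxidation enzymes Hsd17b4, Acaa1a and Acaa1b had 0.24, -0.05 and 0.25.

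Because Cyp4a12a and Cyp4a12b are male-predominant, other male-biased liver genes were set beside them. Of 23 listed, 3 passed the test, all lower, against 0.297% of all genes, and 19 of 23 had a log2 fold change below 0 (median -0.59). Mup20, a major urinary protein that acts as a male pheromone, fell by 2.12 on the log2 scale (limma adjusted p = 0.00355), Gstp1, a glutathione S-transferase, by 1.29 (limma adjusted p = 0.0158), and C6, a terminal complement component, by 1.08 (limma adjusted p = 0.0414). The count was 6 without Control mouse 2 and 1 without Low AA mouse 2 or Low AA mouse 3. Over all genes, 47 passed with all mice, 77 without Control mouse 2, and 19 and 16 without Low AA mice 2 and 3. The count of male-biased genes thus moved in the same direction as that of all genes. Several male-biased genes had values near or above 0, such as Slco1a1, an organic anion transporter, with 0.02, and Elovl3, a fatty acid elongase, with 0.23. Many of these genes belong to multigene families, so their reads may be shared as well. Of 19 female-biased genes 7 were listed, 4 with a log2 fold change above 0 and 3 below (median 0.69), and 5 had an unadjusted p under 0.05, against 11.8% of all genes. The 4 above 0 did not pass and overlapped between the diets, with 5.70 for Cyp2b9, 1.97 for Acot3, 1.54 for Cyp17a1 and 0.69 for Abcd2 (limma adjusted p = 0.161, 0.0841, 0.0847 and 0.163). Cyp2b9 ran from 0 to 94 scaled reads in the Control and from 23 to 2940 in the Low AA mice, so its fold change rests on very low Control values. Acot3 is also on the list of PPARA targets, so the 2 lists are not separate. The 1 that passed was Ntrk2, which fell by 2.11 on the log2 scale (limma adjusted p = 0.0414) from 20 to 61 scaled reads on the Control diet to 6 to 11 on the Low AA diet. In every listed gene the 3rd highest value was 28 or more, and Ntrk2 reached 28 only in Control mice. For such a gene a fall is favored by which genes the table lists. The Ntrk2 call was lost in 6 of 8 fits that left out a mouse, without Control mouse 1 or 3 or any of the Low AA mice.

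**Figure D5:**
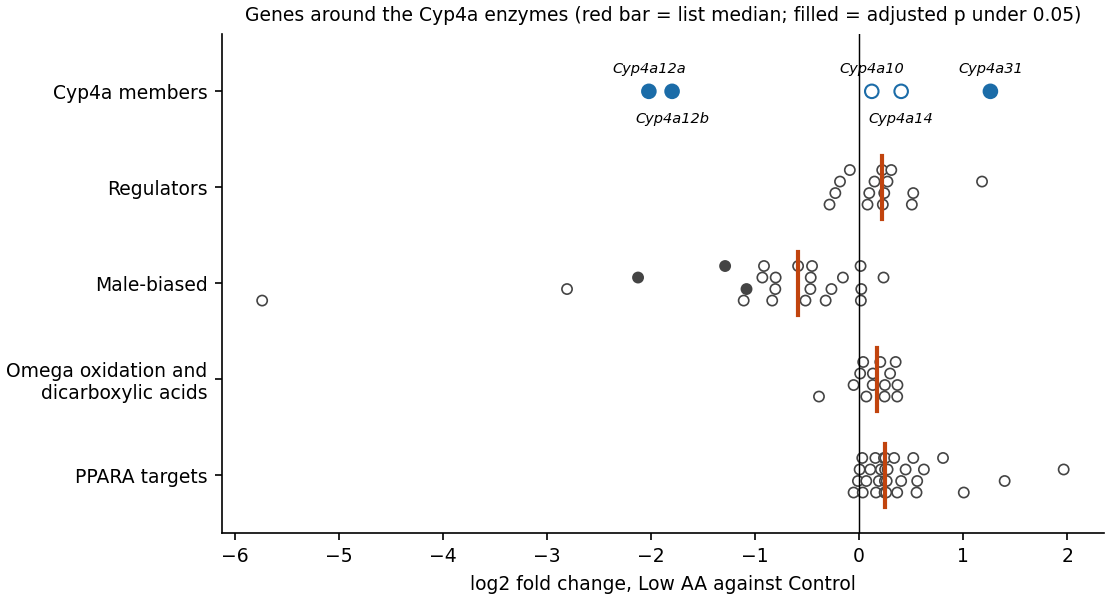
Log2 fold change on the Low AA against the Control diet (horizontal axis) of the 5 Cyp4a members and of each listed gene among PPARA targets, genes of omega oxidation and dicarboxylic acid breakdown, male-biased liver genes and regulators. Points are filled where the limma adjusted p was under 0.05 and red bars mark list medians, which are 0.25 for PPARA targets and -0.59 for male-biased genes.

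Receptors and regulators linked to these enzymes did not pass either. Of 15 listed, 0 passed (limma, with 2 at an unadjusted p under 0.05, a share near the 11.8% of all genes). Ppara had 10553 to 13981 scaled reads in the Control and 11598 to 16011 in the Low AA mice, for a difference of 0.23 on the log2 scale (limma adjusted p = 0.538), and its partner Rxra had -0.09. In the growth hormone pathway, which sets sex-biased liver expression, the receptor Ghr had -0.28, the kinase Jak2 -0.18, the transcription factors Stat5a and Stat5b 0.52 and 0.24, and the feedback inhibitor Socs2 1.18 (limma adjusted p = 0.323). Of the repressor Bcl6, values ran from 170 to 1871 in the Control and from 219 to 1419 in the Low AA mice, too wide a spread for a log2 fold change of -0.23 to be read. Ppargc1a, Ncoa1, Ncor1, Hnf4a, Nr3c1 and Onecut1, coregulators and transcription factors, had log2 fold changes of 0.51, 0.22, 0.27, 0.08, 0.10 and 0.15.

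The position of hepatocytes along the lobule bears on Cyp4a levels, since these genes are more active near the central vein. Of 10 pericentral and 10 periportal markers 0 passed in either list (limma, with 2 at an unadjusted p under 0.05 in each, against 11.8% of all genes), with medians of -0.21 and -0.11, and the summed levels of each list overlapped between the diets. Their part in the Cyp4a changes was not tested. Log2 fold changes were below 0 in 8 of 10 pericentral and 6 of 10 periportal markers, where 50.5% of all genes were above 0. In the periportal list 1 gene, Cyp2f2, was lower without overlap, against 3.55% of all genes. It had -0.77 on the log2 scale (limma adjusted p = 0.131).

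Likeness of pattern was measured as the root mean square difference of log2 values over the 8 mice, each gene centred on its mean. Besides Cyp4a12b at 0.28, the genes most like Cyp4a12a were Mup20 at 0.26, Gpc1, a cell-surface proteoglycan, at 0.31, Mup21 at 0.35, Ces2c, a carboxylesterase, at 0.43 and Akr1c19, an aldo-keto reductase, at 0.44. Each was lower in every Low AA mouse than in every Control mouse, which the choice by likeness to Cyp4a12a itself favors. Mup21 did not pass the test (limma adjusted p = 0.0593). The genes most like Cyp4a14 were Gramd4 at 0.08, Vmp1 at 0.08, G3bp1 at 0.09, Arhgef7 at 0.09 and Wipf1 at 0.09, with log2 fold changes of 0.25 to 0.52. Cyp4a10 was at 0.22 and Cyp4a31 at 0.48 from Cyp4a14, farther than these. The measure also reads the size of a change, so it favors genes with a change of similar size.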

How the data were processed

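Poly(A) RNA from 8 livers had been sequenced with stranded libraries and single reads. The authors deposited 1 table with a signal for each gene and mouse, a read count scaled between libraries and rounded. The scaling is inferred: medians over genes lay between 433.0 and 449.0 in all mice. The submitters' processing notes name STAR 2.5.0a, RSEM 1.2.6, edgeR 3.10.5 and mm10, without stating the scaling. Genes of low expression are absent. Another 2 columns hold the authors' fold change and FDR and were not used.

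Each value was transformed to log2(value + 1) and the diets compared with limma 3.58.1 (R 4.3.3, trended prior variance), and p-values were adjusted by the Benjamini-Hochberg method. Requiring a value of 1 or more in 4 mice left out 0 genes. Fold changes on this scale understate those of low genes. Each p-value sets the diet difference against the spread between mice, moderated across genes. Cages were not given, so a cage effect could not be modelled. Counts were not recoverable, so count models were not used, and the exact depth is unknown.

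Members and gene lists were chosen with earlier results of these data known. Genes named were the members, all list genes that passed, the regulators, electron donors, later omega-oxidation steps and other Cyp4 genes, the 4 most abundant PPARA targets, cluster neighbours, the 5 genes most like Cyp4a12a and Cyp4a14, and markers. Acot3, Pdk4, Slco1a1, Elovl3, Cyp2b9, Cyp17a1, Abcd2, Saa1, Orm1 and Cyp2f2 were named after their values were seen. A few genes that this rule covers are counted in their lists but not reported here. Older symbols were matched through RefSeq synonyms. Transcripts and positions are those of GENCODE vM21 (GRCm38, the build mm10), with the longest protein-coding transcript of each gene, aligned with Biopython 1.88. Promoters of the members were not used here.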

Additional observations from a re-analysis of the deposited data

Results flagged for a closer look

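A mouse was examined for lying far from the other 3 of its diet, by its gap to the nearest of them over the range of the group on the log2 scale, in 118 groups of 4. In 7 groups 1 mouse stood out. Chance gives about 1 in 20 for groups picked without regard to their values. Cela1 and the genes most like Cyp4a12a and Cyp4a14 were included after their values were seen, so the count is not a test. None of the 7 groups was of a Cyp4a member. For Cela1, Control mouse 2 was far above the rest (gap over range 0.945). Among genes of the pathway, Adh4 was lowest in Control mouse 4 (0.903, with 1430 against 2362 to 2493). Among Cyp4 genes, Cyp4f15 was lowest in Control mouse 1 (0.915, with 3226 against 4058 to 4145), Cyp4f17 in Control mouse 2 (0.895) and Cyp4f14 in Low AA mouse 2 (0.878). Jak2 was highest in Low AA mouse 2 (0.852) and Akr1c19 highest in Control mouse 2 (0.859).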

How the results depend on the processing

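Cyp4a12a and Cyp4a12b kept their direction and passed under each alternative run. With a mouse left out, their log2 fold changes ran from -2.12 to -1.88 and from -1.91 to -1.69. Cyp4a31 passed under the other pseudocounts, filters, scaling and moderation, and in 6 of 8 fits that leave out a mouse (1.13 to 1.35, adjusted p 0.0215 to 0.0672). It did not pass when summed with Cyp4a10 and Cyp4a32 (0.17, an alternative added after the values were seen), because Cyp4a10 makes up most of that sum. Cyp4a14 and Cyp4a10 passed under none, with 0.33 to 0.47 and 0.06 to 0.21 when a mouse was left out. The contrast between the Cyp4a12 pair and the other members, -2.51, ran from -2.63 to -2.40.

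The number of genes called, 47, was 30 with no trend, 19 among the 8000 genes with the highest mean, and 16 to 77 with a mouse left out. It was 29 without Control mouse 1, 77 without Control mouse 2, and 21, 19 and 16 without Low AA mice 1, 2 and 3. With a mouse left out, 0 to 2 PPARA targets, 1 to 6 male-biased genes and 0 to 2 female-biased genes were called. Among the 8000 genes, 0 female-biased genes were called. The cause was not tested. No paired analysis was possible because each mouse code belongs to 1 diet only.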
